A study of Mus musculus with 61 samples.

Results

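Liver RNA of 2 inbred mouse strains, B6 and Cast, was compared over all genes, with all 7 B6 libraries and all 7 Cast libraries of the count table, 14 of the 60 libraries of the series. B6 (C57BL/6J) is the strain behind the mouse reference genome, and Cast (CAST/EiJ) is an inbred strain derived from wild Mus musculus castaneus. Both are founders of the Diversity Outbred stock. Every mouse had been on a high-fat, high-sugar diet, which the labels give as 45% fat, so no group on another diet enters the comparison. B6 was represented by the numbers 1, 2, 3, 4, 6, 7 and 8 and Cast by the numbers 1, 2, 3, 5, 6, 7 and 8, and a sample B6 5 had no column in the table. No transgene or engineered allele is named for either strain. The labels give neither age nor sex, and do not say in so many words that each library came from another animal, so p-values speak of the scatter among these libraries, part of which may be technical.

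The liver makes cholesterol, fatty acids and glucose, exports most plasma proteins, detoxifies foreign compounds and holds resident immune cells. Cholesterol and fatty acid synthesis are switched on by the transcription factors SREBP2 and SREBP1c, which sense sterols and insulin, whereas glucose output and amino acid breakdown are raised by fasting hormones. Antiviral genes are driven by interferons through transcription factors of the STAT and IRF families, and many liver genes of the P450, sulfotransferase and major urinary protein families differ between the sexes under the control of growth hormone.

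Depth was between 19.98 and 38.2 M reads (M, 1000000) per library in B6 and between 26.7 and 38.2 M in Cast. Levels are counts per 1000000 reads (CPM) after scaling of the libraries, and the number of reads bounds only the counting error. Genes above 0 numbered 17943 ± 234 (SD, n = 7) in B6 and 17335 ± 276 (SD, n = 7) in Cast (exact permutation test, two-sided, p = 0.00175, adjusted over 4 library measures 0.00699). The share of reads from ribosomal RNA (the Rn18s-rs5 row) was 5.81 ± 1.52% (SD, n = 7) in B6 and 2.55 ± 1.77% (SD, n = 7) in Cast, where libraries 2, 5 and 8 were under 1% (exact permutation p = 0.00350, adjusted 0.00699). Mitochondrial genes took 6.93% and 7.59% of the reads (exact permutation p = 0.195). Xist, which coats and silences an X chromosome, split both strains: B6 1 to 4 and Cast 1 to 3 were at 809 CPM or more, and B6 6 to 8 and Cast 5 to 8 were at 7.34 CPM or less. Of the Cast libraries, 5 and 6 stood apart in stress and acute phase genes, as given with those genes, and counts that depend on them are also given without them. Of 12 hepatocyte markers, all were measured at high levels in both strains, with summed levels of 87797 to 125144 CPM in B6 and 72327 to 105860 CPM in Cast.

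Many of the measured genes differed between the strains. Of 16165 genes tested with edgeR, 9224 (57.1%) passed an adjusted p of 0.05 and are described as called. Cast was higher in 4557 (28.2%) and lower in 4667 (28.9%), the shares against which the count of each gene list is read. The balance shifted with size: 1246 genes (7.71%) were called and at least 2-fold higher in Cast and 2445 (15.1%) at least 2-fold lower, so 66.2% of the large differences were lower in Cast. At 4-fold or more, 529 were higher and 1093 lower, and at 16-fold or more 154 were higher and 294 lower. All 7 Cast libraries lay above all 7 B6 libraries in 1222 genes (7.56%) and below them in 1878 (11.6%). The median log2 fold change over all genes was -0.02. Log2 fold changes are given as Cast minus B6 with their standard error (SE). The share of genes called depended on the libraries fitted. With only the B6 and Cast libraries in the edgeR fit, 6590 of 14266 genes (46.2%) were called. The share was 49.8% with only the high-Xist libraries and 43.0% with only the low-Xist libraries.

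**Figure D1:**
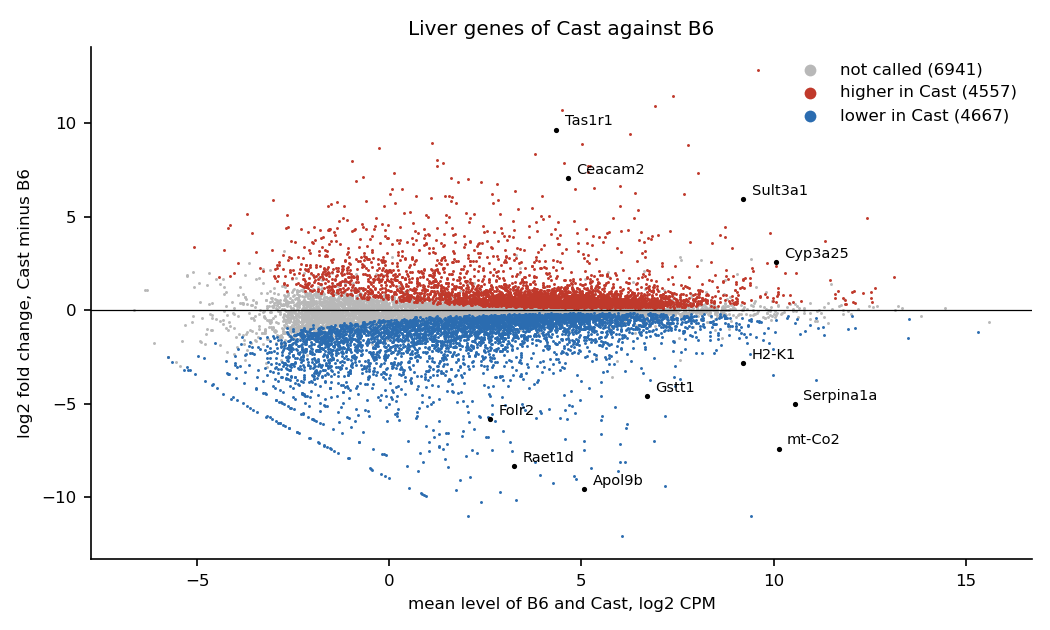
Log2 fold change, Cast minus B6 (vertical axis), against the mean level of the 2 strains in log2 CPM (horizontal axis), for the 16165 genes tested. Red points are the 4557 genes called higher in Cast, blue points the 4667 called lower and grey points the 6941 not called. Straight rows of points at the lower left are genes with few reads.

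The means of the other 6 founder strains lay more often with B6 than with Cast. Among the 1246 genes at least 2-fold higher in Cast, 5 or 6 of the 6 other strain means were nearer to B6 in 761 (61.1%) and nearer to Cast in 68 (5.46%). Among the 2445 lower by as much, the counts were 1049 (42.9%) and 289 (11.8%). Reads of Cast carry more sequence differences from the reference genome than those of B6. Whether reads were aligned to a genome of their own strain is not given in the sources used here, and its part in the lower levels was not tested.

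The ranking of the largest differences took only genes annotated as protein coding whose level averaged 5 CPM or more over the 14 libraries and whose strains did not overlap, predicted genes left out. Most of the 12 with the largest excess in Cast had few reads in B6. Positions are those of GENCODE M21 on the GRCm38 build. Tas1r1, a subunit of the umami taste receptor (chromosome 4, 152027914 to 152038568), lay at 0 to 0.120 CPM (median 0.0410) in B6 and at 24.7 to 73.3 CPM (median 31.98) in Cast, a log2 fold change of 9.66 ± 0.48 (adjusted p = 2.39e-24). The other 6 strains averaged 0.0429 to 0.134 CPM, so its expression set Cast apart from each of the other 7. Ceacam2, an adhesion molecule of the carcinoembryonic antigen family (chromosome 7, 25516042 to 25539857), was at 0.0410 to 0.927 CPM (median 0.284) in B6 and 18.98 to 79.5 CPM (median 60.4) in Cast (7.09 ± 0.36, adjusted p = 4.53e-24). Akr1c18, which inactivates progesterone (chromosome 13, 4132615 to 4150654), was at 0.0351 to 1.32 CPM (median 0.0819) in B6 and 19.04 to 132 CPM (median 96.8) in Cast (7.72 ± 0.63, adjusted p = 1.54e-15). Both were also expressed in at least 1 other strain, with strain means up to 48.96 CPM for Ceacam2 and 107 CPM for Akr1c18. Pus7l, a pseudouridine synthase homologue, was near 1 CPM in every B6 library and between 16.3 and 319.6 CPM in Cast (6.63 ± 0.37, adjusted p = 4.0e-22), against 1.62 to 1.91 CPM in the other strains. The list of 12 was completed by Atp6v0a4, a proton pump subunit (7.88 ± 0.60), Dnah5, a dynein of cilia (6.77 ± 0.56), Eno1b, an enolase gene (9.41 ± 0.63), and by 5 detoxifying enzymes described with their families. How reads that match more than 1 enolase gene were divided is not given in the sources used here, so the count of Eno1b is uncertain. In all 12, each Cast library exceeded each B6 library, as the choice of these genes required.

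The 12 genes with the largest deficit in Cast, ranked in the same way, included genes of defence. Apol9b, an apolipoprotein L induced by interferon (chromosome 15, 77729121 to 77736381), lay at 42.2 to 108 CPM (median 65.8) in B6 and at 0 to 0.239 CPM (median 0.0369) in Cast (-9.55 ± 0.51, adjusted p = 4.22e-23). Raet1d, a stress ligand seen by natural killer cells (chromosome 10, 22360552 to 22374139), went from 7.3 to 34.7 CPM (median 18.2) to 0 to 0.179 CPM (median 0.0369) (-8.33 ± 0.56, adjusted p = 6.74e-19). Hamp2, a relative of the iron hormone hepcidin (chromosome 7, 30922389 to 30924681), was at 8.33 to 300.3 CPM (median 99.4) in B6 and 0 to 1.22 CPM (median 0.0643) in Cast (-8.11 ± 1.21, adjusted p = 1.17e-07). All 7 Cast libraries had next to no reads of these genes. Rarres1, a retinoic acid responsive membrane protein (-9.23 ± 0.55, adjusted p = 4.21e-21), set Cast apart from the other 6 strains, which averaged 20.6 to 51.9 CPM. Tmem254b, a membrane protein with near-identical neighbouring copies and therefore of uncertain count, was lower by as much (-9.03 ± 0.48, adjusted p = 4.48e-23). Fitm1, which helps to form lipid droplets, was at 1.90 to 30.7 CPM (median 5.83) in B6 and 0 to 0.259 CPM (median 0.0298) in Cast (-7.49 ± 0.93, adjusted p = 1.23e-09).

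Near absence was more often on the Cast side: 31 genes had at most 3 reads in all 7 Cast libraries together and at least 1 CPM in B6, of which 18 were protein coding, and 7 genes were so in B6, of which 3 were protein coding. Against a floor of 3 reads over the group, H2-Q1, a non-classical class I gene, was at least 1438-fold lower in Cast (19.6 ± 7.18 CPM in B6, SD, n = 7). Wfdc17, a small secreted protein of myeloid cells, was at least 765-fold lower (10.4 ± 3.53 CPM in B6), and Tgtp2, an interferon-inducible GTPase, at least 629-fold lower (8.58 ± 3.22 CPM in B6). Olfm3 and Gabra3 had 0 reads in Cast, with 3.70 ± 2.13 and 3.51 ± 0.462 CPM in B6, and were at least 272-fold and 257-fold lower. Themis, also at 0 reads in Cast, was at 4.70 to 7.08 CPM in low-Xist and 0.239 to 0.332 CPM in high-Xist B6, so its B6 mean rests on the low-Xist libraries. Gabra3 and Themis were named after their values were seen. Gabra3 is a receptor subunit for the inhibitory transmitter GABA, and Themis is a signalling protein of T cells. In the other direction Trim43b, a member of the tripartite motif family, was at least 153-fold higher in Cast (2.14 ± 0.852 CPM), and the netrin receptor Unc5c at least 87.7-fold higher (0.0518 to 4.13 CPM (median 0.836)).

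Genes of cholesterol synthesis were lower in Cast at nearly every step. Of 22 enzymes tested, 19 (86.4%) were called lower and 0 higher, with a median log2 fold change of -1.77, beside 28.9% lower and a median of -0.02 over all genes. The 3 not called included Ggps1, which makes geranylgeranyl diphosphate (0.07 ± 0.10, adjusted p = 0.585), and Lbr, a sterol reductase of the nuclear envelope (-0.33 ± 0.18, adjusted p = 0.112), both named after their values were seen. The promoter of Hmgcs1 is shown because it was the only one of the 17 matched cholesterol genes with the core SREBP element TCACNCCAC, searched on both strands in the 250 bases before the start. This motif was in 1.22% of all RefSeq promoters of this length. The element is in capitals, in the C57BL/6J reference (RefSeq, GRCm38.p6), and the sequence of Cast was not used here. The stretch is chr13:119690174-119690262 (+ strand).
Hmgcs1: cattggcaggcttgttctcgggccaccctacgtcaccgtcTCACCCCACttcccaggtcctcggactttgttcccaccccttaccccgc

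At the entry of the pathway, Hmgcs1, which makes HMG-CoA (chromosome 13, 119690462 to 119708086), lay at 88.9 to 636 CPM (median 246) in B6 and 23.2 to 54.3 CPM (median 37.6) in Cast (-2.95 ± 0.39, adjusted p = 7.81e-09). Pmvk, phosphomevalonate kinase (chromosome 3, 89454541 to 89469013), was at 12.7 to 47.2 CPM (median 24.8) in B6 and 1.20 to 4.24 CPM (median 2.90) in Cast (-3.31 ± 0.38, adjusted p = 1.33e-10). Neither gene overlapped between the strains, and the B6 libraries with low Xist were the 3 highest for both. Fdps, which makes farnesyl diphosphate, was at 36.5 to 356 CPM (median 123) in B6 against 3.26 to 44.5 CPM (median 15.8) in Cast (-3.34 ± 0.52, adjusted p = 3.36e-07), with an overlap at the edge. Of the late steps, Cyp51, the lanosterol demethylase, was lower (-3.23 ± 0.51, adjusted p = 3.44e-07) and Sc5d, a sterol desaturase (-2.30 ± 0.31, adjusted p = 1.29e-08), the latter without overlap. The strain means of the other 6 for Pmvk, 16 to 33.8 CPM, were all nearer to B6.

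Among regulators, the activator was lower in Cast, and over all libraries its 2 brakes differed in opposite directions. Srebf2, which encodes SREBP2, was at 41.8 to 68.8 CPM (median 53.4) in B6 and 20.9 to 38.2 CPM (median 31.7) in Cast (-0.83 ± 0.16, adjusted p = 1.04e-05), with no overlap. Insig1, a brake on SREBP processing, went from 179 to 443 CPM (median 312) in B6 to 29.01 to 148 CPM (median 57.7) in Cast (-2.25 ± 0.31, adjusted p = 1.32e-08). Insig2, the liver form of that brake, was higher in Cast (1.21 ± 0.25, adjusted p = 3.68e-05). This excess lay in the high-Xist libraries (1.92), with 0.38 in low-Xist libraries (edgeR adjusted p = 0.298, and 0.0163 for the difference). Mylip, a ubiquitin ligase induced by oxysterols, was higher too (0.85 ± 0.12, adjusted p = 4.73e-08). Of 15 members of this list, 8 were called lower and 3 higher, with 5 higher without B6 2, without Cast 5 or without Cast 6.

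**Figure D2:**
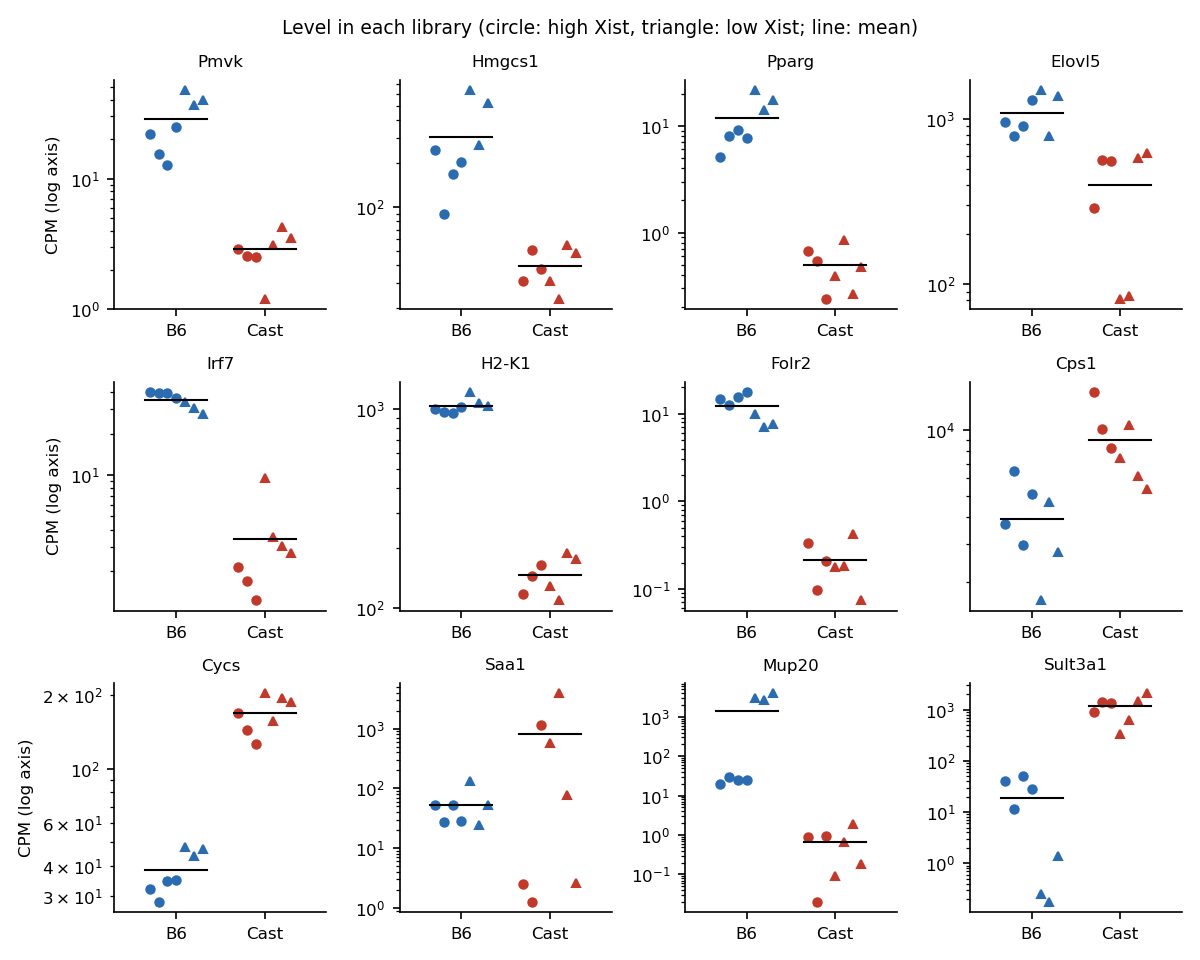
Level of 12 genes in each of the 7 B6 (blue) and 7 Cast (red) libraries, in CPM on log axes that differ between panels. Circles are high-Xist and triangles low-Xist libraries, lines are strain means, and values under 0.02 CPM are drawn at that level. Pmvk, Hmgcs1, Pparg, Elovl5, Irf7, H2-K1 and Folr2 do not overlap, Saa1 in Cast spans from 1.25 to 3874 CPM, and Mup20 is highest in low-Xist B6.

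Genes of fatty acid synthesis were mostly lower too. Of 22 genes tested, 14 were called lower and 2 higher (median -1.24), and the summed level was 12653 to 38049.7 CPM in B6 and 5523 to 15060.3 CPM in Cast. Me1, malic enzyme, which supplies NADPH (chromosome 9, 86581371 to 86695953), was at 78.4 to 608 CPM (median 335) in B6 and 43.5 to 125 CPM (median 73.5) in Cast (-2.06 ± 0.39, adjusted p = 1.06e-05). Elovl5, an elongase, was at 790.1 to 1486 CPM (median 962) in B6 and 81.3 to 619.8 CPM (median 552) in Cast (-1.45 ± 0.31, adjusted p = 8.08e-05), and its libraries did not overlap. Mid1ip1, an activator of acetyl-CoA carboxylase, was lower (-1.64 ± 0.27, adjusted p = 1.24e-06), and Fads2, a desaturase (-1.32 ± 0.32, adjusted p = 3.97e-04). Nr1h3, the oxysterol receptor LXR-alpha, was one of the 2 higher (0.43 ± 0.08, adjusted p = 6.16e-06). The other lost its call without B6 4, 6, 7 or 8 or Cast 2, 3, 7 or 8, one at a time.

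Genes of glycolysis and glycogen differed in both directions. Pklr, liver pyruvate kinase, was lower (-1.61 ± 0.36, adjusted p = 1.6e-04) and Phka2, a subunit of the kinase that starts glycogen breakdown (-1.54 ± 0.14, adjusted p = 1.65e-13). Of 29 glycolysis and glycogen genes, 10 were lower (34.5%, near the share of all genes) and 5 higher (17.2%, under it), among the latter Pgam1 (0.68 ± 0.08, adjusted p = 4.1e-10) and Tpi1 (0.51 ± 0.09, adjusted p = 1.65e-06), which act in the middle of glycolysis. With only the B6 and Cast libraries in the fit, 6 of this list were called lower.

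Of the genes of triglyceride storage, more were lower than higher in Cast, and the main lipase gene was higher. Pparg, a receptor that drives fat storage (chromosome 6, 115360951 to 115490399), was at 5.11 to 21.4 CPM (median 9.06) in B6 and 0.238 to 0.854 CPM (median 0.479) in Cast (-4.56 ± 0.48, adjusted p = 9.91e-12). G0s2, an inhibitor of the lipase ATGL, was at 33.6 to 142 CPM (median 93.5) in B6 and 0.898 to 30.4 CPM (median 9.89) in Cast (-2.84 ± 0.50, adjusted p = 2.82e-06). Neither overlapped between strains. Pnpla2, which encodes ATGL, was at 38.8 to 80.6 CPM (median 47.1) in B6 and 68.9 to 493 CPM (median 96.3) in Cast (1.66 ± 0.23, adjusted p = 2.52e-08). Gpam, the first enzyme of triglyceride synthesis (-2.15 ± 0.39, adjusted p = 5.31e-06), and the droplet coat protein Plin2 (-1.31 ± 0.26, adjusted p = 3.36e-05) were lower. Of 25 genes of triglyceride synthesis and lipid droplets, 11 were lower (44%, beside 28.9% of all genes) and 4 higher (16%, beside 28.2%).

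Genes of fatty acid oxidation differed between the strains mainly in the low-Xist libraries. Over all libraries, 21 of 40 genes were called lower and 2 higher, which became 10 lower with only the B6 and Cast libraries in the fit and 13 lower without Cast 5 and 6. A model with strain and Xist class tested whether the difference itself depended on the class. It did for 1104 of 16165 genes (6.83%) and for 25 of the 40 oxidation genes (62.5%), and in all 25 the fold change was more negative in the low-Xist libraries. In the high-Xist libraries 8 oxidation genes were called higher and 4 lower (all genes 21.8% higher and 23.7% lower), with a median of 0.02. In the low-Xist libraries 1 was higher and 28 lower (all genes 24.2% higher and 25.0% lower), with a median of -0.82. Leaving out each library in turn gave 765 (without B6 8) to 1610 (without Cast 8) such genes over all and 17 to 29 oxidation genes that differed by class, and leaving out Cast 5 and 6 together gave 16, all in the same direction. Xist class is a property of the library and not a label, and it cannot be told apart from the numbers 1 to 4 and 5 to 8 that it follows.

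Single enzymes show this. Acadm, a dehydrogenase that oxidises medium-chain fatty acids, was at 276 to 365 CPM in high-Xist B6 and 267 to 324 CPM in high-Xist Cast (-0.02). It was at 326 to 364 CPM in low-Xist B6 and 70.6 to 169 CPM in low-Xist Cast (-1.41), a difference between the 2 fold changes of -1.39 (adjusted p = 3.62e-04). The low-Xist Cast libraries were thus all below the other 10. Eci1, an enoyl-CoA isomerase, was unequal in the same way (-0.41 against -1.80, adjusted p of the difference = 0.00105), as were Decr1, a dienoyl-CoA reductase (-0.46 against -1.55, 0.00622), and Vnn1, a pantetheinase (-3.54 against -6.18, 0.0125). Vnn1 was lower in both classes. It was at 26.2 to 148 CPM (median 77.9) in B6 and 0.389 to 13.8 CPM (median 2.64) in Cast. Hadh, a dehydrogenase of short chains, was lower over all libraries (-1.34 ± 0.20, adjusted p = 1.14e-07), with an adjusted p of 0.0931 for the difference by class. Acadm was named after its values were seen. The 2 higher were Cyp4a32, a fatty acid hydroxylase with close relatives (3.80 ± 0.44, adjusted p = 1.37e-10), and Angptl4, an inhibitor of lipoprotein lipase (1.02 ± 0.20, adjusted p = 2.39e-05).

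Lipid droplet genes split in the same sense: 13 of 25 (52%) differed by class, all 13 with the more negative fold change in low-Xist libraries, and 9 to 13 did so without each library in turn. In the high-Xist libraries 9 were higher and 4 lower, and in the low-Xist libraries 2 were higher and 18 lower. Plin2 had a log2 fold change of -2.38 in low-Xist and -0.35 in high-Xist libraries (adjusted p of the difference = 0.00163). Pnpla2 had 2.42 in high-Xist and 0.81 in low-Xist libraries (adjusted p = 0.0076). For Me1 the values were -0.67 in high-Xist and -3.30 in low-Xist libraries (adjusted p = 0.00398).

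**Figure D3:**
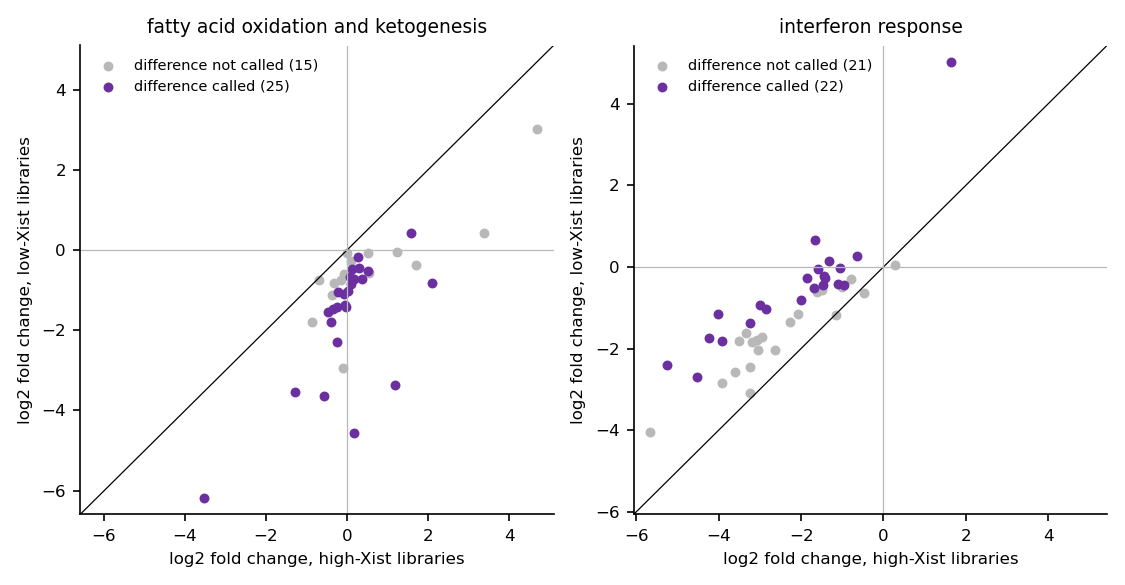
Log2 fold change, Cast minus B6, in the high-Xist libraries (horizontal axis) and in the low-Xist libraries (vertical axis) for 40 genes of fatty acid oxidation and ketogenesis (left) and 43 interferon response genes (right). Purple points are genes whose 2 fold changes differed (25 and 22), grey points the others, and the diagonal marks equal values. Purple points lie below the diagonal on the left and above it on the right.

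Many genes of glucose output and amino acid breakdown were higher in Cast. Of 20 gluconeogenesis genes, 12 (60%, beside 28.2% of all genes) were called higher and 4 lower, or 2 lower without Cast 5 and 6. Slc37a4, the glucose-6-phosphate transporter, was at 74.4 to 166 CPM (median 90.6) in B6 and 147 to 272 CPM (median 189.8) in Cast (0.96 ± 0.16, adjusted p = 1.81e-06). Ppargc1a, a coactivator induced by fasting, was at 10.5 to 17.6 CPM (median 14.3) in B6 and 12.5 to 108 CPM (median 37.4) in Cast (1.69 ± 0.35, adjusted p = 4.79e-05). Tat, a tyrosine aminotransferase induced by glucocorticoid, was at 674 to 2015 CPM (median 1338) in B6 and 1578 to 8926 CPM (median 4299) in Cast (1.62 ± 0.32, adjusted p = 2.47e-05). These ranges overlapped, with each Cast median above the highest B6 library. Lpin1, a phosphatidate phosphatase and coactivator (2.17 ± 0.43, adjusted p = 2.32e-05), and Got1, a transaminase (1.73 ± 0.44, adjusted p = 7.72e-04), were higher as well, while Pck2, the mitochondrial carboxykinase, was lower (-0.88 ± 0.21, adjusted p = 2.99e-04). All 6 other strain means of Pck2 were nearer to Cast.

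In the urea cycle and amino acid list 16 of 41 genes were higher (39.02%, beside 28.2% of all genes) and 7 lower (17.1%, beside 28.9%), or 4 lower without Cast 5 and 6. Bckdhb, of the branched-chain ketoacid dehydrogenase (chromosome 9, 83925145 to 84124240), lay at 48.6 to 61.2 CPM (median 55.3) in B6 and 94.2 to 143 CPM (median 138) in Cast with no overlap (1.26 ± 0.09, adjusted p = 9.79e-19). The other 6 strains averaged 91.1 to 107.9 CPM, all nearer to Cast. Aass, which starts lysine breakdown, was at 235 to 445 CPM (median 301) in B6 and 499 to 2809 CPM (median 748) in Cast (1.72 ± 0.21, adjusted p = 1.22e-09). Cps1, the first enzyme of the urea cycle, was higher (1.20 ± 0.20, adjusted p = 1.64e-06), Asl, argininosuccinate lyase (1.46 ± 0.24, adjusted p = 6.04e-07), and Slc25a15, the ornithine carrier (1.23 ± 0.18, adjusted p = 1.21e-07). Lower were Fah, the last enzyme of tyrosine breakdown (-0.76 ± 0.10, adjusted p = 2.9e-09), and Prodh2, which oxidises hydroxyproline (-1.16 ± 0.20, adjusted p = 1.5e-06). Of 17 genes of periportal hepatocytes, where urea and glucose are made, 7 were higher (41.2%, beside 28.2% of all genes) and 0 lower. Among the 7 was Etnppl, a phospholyase of ethanolamine phosphate (2.35 ± 0.40, adjusted p = 1.64e-06). Of 17 pericentral genes 3 were higher (17.6%) and 7 lower (41.2%, beside 28.9% of all genes), including the Wnt feedback ligase Rnf43 (-1.38 ± 0.28, adjusted p = 4.07e-05). The 7 became 4 with only the B6 and Cast libraries in the fit, 2 when a replicate block was added, and 4 with only the low-Xist libraries.

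Some genes of hormone action differed as well. Of 19 genes of the growth hormone and IGF axis, 5 were higher (26.3%) and 4 lower (21.05%), both under the 28.2% and 28.9% of all genes. Igfbp2, a binding protein for insulin-like growth factors, was at 80.3 to 404 CPM (median 182) in B6 and 332 to 1241 CPM (median 542) in Cast (1.82 ± 0.26, adjusted p = 4.39e-08), and Igfbp1, which insulin represses, was higher (2.56 ± 0.60, adjusted p = 2.75e-04). Lepr, the leptin receptor, was at 4.003 to 90.2 CPM (median 31.6) in B6 and 17.8 to 1165 CPM (median 309.7) in Cast (3.68 ± 0.80, adjusted p = 9.3e-05). Igfbp1 was at 2003, 3855 and 3311 CPM in Cast 1, 5 and 6 and at 262 to 686 CPM in the other 4. Egfr, the epidermal growth factor receptor, was higher (2.24 ± 0.58, adjusted p = 8.91e-04), and Stat5a, a mediator of growth hormone, was lower (-0.84 ± 0.18, adjusted p = 1.01e-04). Of 21 insulin signalling genes, 8 were higher (5 with only the 2 strains in the fit), as Akt2 (0.41 ± 0.05, adjusted p = 1.71e-09), and 2 lower, the insulin receptor Insr (-0.52 ± 0.08, adjusted p = 7.04e-08) and Ceacam1, which promotes insulin clearance (-0.41 ± 0.11, adjusted p = 9.93e-04). The call of Ceacam1 ended with only the 2 strains in the fit (adjusted p = 0.0864).

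Bile acid and lipoprotein genes differed in both directions. Abcc3, which exports bile acids to blood (chromosome 11, 94343295 to 94392997), was at 236 to 421 CPM (median 317) in B6 and 13.1 to 65.02 CPM (median 19.4) in Cast (-3.59 ± 0.41, adjusted p = 1.15e-10). Hsd3b7, an early enzyme of bile acid synthesis, was lower (-0.89 ± 0.15, adjusted p = 1.03e-06), whereas Acox2, which shortens the side chain, was higher (1.08 ± 0.15, adjusted p = 1.45e-08) and Cyp7b1, of the alternative route (3.60 ± 0.81, adjusted p = 1.69e-04). As a list the bile acid genes did not exceed the background: of 31 genes, 6 were higher (19.4%, beside 28.2% of all genes) and 8 lower (25.8%, beside 28.9%), with 5 lower without Cast 5 and 5 lower without Cast 6. Apon, an apolipoprotein F relative, was higher without overlap (1.27 ± 0.12, adjusted p = 8.9e-14). Pltp, the phospholipid transfer protein, was at 32.2 to 158 CPM (median 72.3) in B6 and 7.99 to 22.8 CPM (median 16.4) in Cast (-2.53 ± 0.42, adjusted p = 1.03e-06), and Apoa2, a protein of high-density lipoprotein, was lower (-0.77 ± 0.14, adjusted p = 6.74e-06).

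**Figure D4:**
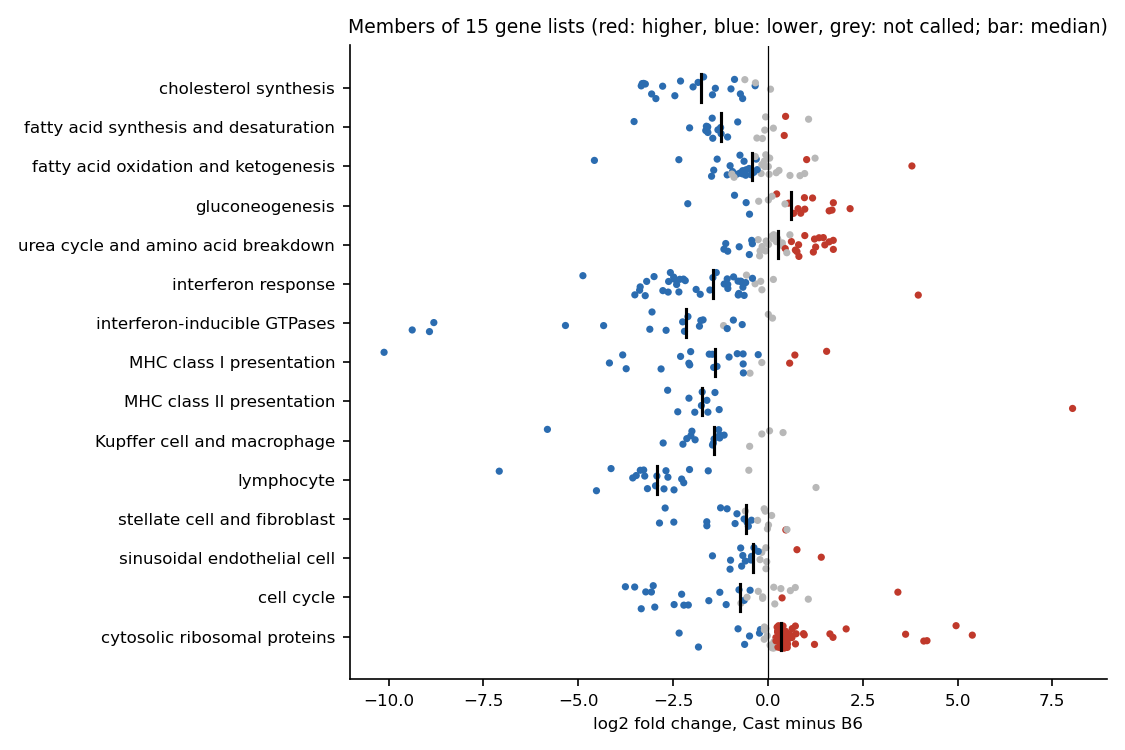
Log2 fold change, Cast minus B6 (horizontal axis), of each tested member of 15 gene lists (rows). Red points were called higher, blue lower, grey not called, and the bar is the median. The medians of cholesterol synthesis (-1.77), interferon-inducible GTPases (-2.15) and lymphocyte markers (-2.93) lie to the left, that of gluconeogenesis (0.61) to the right.

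Interferon response genes were lower in Cast almost throughout. Of 43 genes, 37 (86.05%, beside 28.9% of all genes) were called lower and 1 higher, with a median of -1.45, and in 24 all Cast libraries were below all B6 libraries. The 5 that were not called, named after their values were seen, were Oas1b, Mx1, Stat2, Ifi27 and Bst2, of which Oas1b passed without Cast 5 (adjusted p = 0.00487) or B6 7 (0.0493) and Ifi27 without Cast 5 (0.0429). Without Cast 5 and 6 together, Oas1b, Ifi27 and Stat2 passed (adjusted p = 0.0167, 0.019 and 0.00674). Of the interferon-inducible GTPases, which attack vacuoles of intracellular parasites, 17 of 20 were lower and 0 higher (median -2.15). Reference promoters of 3 such genes are shown because the interferon-stimulated response element, searched as GAAANNGAA on both strands in the 250 bases before the start, was in 14 of 32 matched response genes (43.8%) and in 10 of 12 matched GTPases (83.3%). It was in 8.18% of all RefSeq promoters of that length. The share was 11.1% of 1580 matched genes called at least 2-fold lower in Cast, 7.88% of 761 called at least 2-fold higher and 7.19% of 4576 not called. Overlapping matches are joined, matches are in capitals, and the stretches (GRCm38.p6, C57BL/6J) are chr4:156200836-156200936 (- strand) for Isg15, chr19:34583334-34583475 (+ strand) for Ifit3 and chr11:58199482-58199555 (+ strand) for Igtp, a GTPase chosen after its values were seen (-2.11 ± 0.34, adjusted p = 5.71e-07).
Isg15: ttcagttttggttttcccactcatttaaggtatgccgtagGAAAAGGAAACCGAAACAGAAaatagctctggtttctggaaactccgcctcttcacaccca
Ifit3: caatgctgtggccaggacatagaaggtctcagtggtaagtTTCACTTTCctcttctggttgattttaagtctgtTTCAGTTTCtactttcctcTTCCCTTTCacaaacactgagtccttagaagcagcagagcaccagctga
Igtp: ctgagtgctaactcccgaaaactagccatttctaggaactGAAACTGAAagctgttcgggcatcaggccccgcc

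Irf7, the factor that amplifies interferon production (chromosome 7, 141262706 to 141266481), was at 27.5 to 40.1 CPM (median 35.98) in B6 and 1.22 to 9.49 CPM (median 2.69) in Cast (-3.37 ± 0.32, adjusted p = 2.36e-13). Isg15, a ubiquitin-like modifier (chromosome 4, 156199424 to 156200818), was at 3.58 to 9.43 CPM (median 5.78) in B6 and 0.0964 to 1.83 CPM (median 0.298) in Cast (-3.51 ± 0.38, adjusted p = 2.82e-11). Ifit3, which restrains viral RNA (chromosome 19, 34583531 to 34588731), was at 13.4 to 27.2 CPM (median 18.4) in B6 and 0.492 to 5.24 CPM (median 1.47) in Cast (-3.38 ± 0.37, adjusted p = 3.65e-11). For none of the 3 did the strains overlap, and the highest Cast library of each was Cast 5. Ifi44 (-4.88 ± 0.50, adjusted p = 5.53e-12) and the ubiquitin ligase Dtx3l (-1.15 ± 0.11, adjusted p = 7.57e-13) were lower without overlap.

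Several GTPases had low levels in Cast. Iigp1 was at 186 to 415 CPM (median 299) in B6 and 0 to 0.879 CPM (median 0.400) in Cast (-9.38 ± 0.41, adjusted p = 5.04e-27), while the other 6 strains averaged 205 to 366 CPM. Gbp10, a guanylate-binding protein, was at 10.8 to 53.1 CPM (median 30) in B6 and 0 to 0.181 CPM (median 0.0596) in Cast (-8.81 ± 0.71, adjusted p = 1.11e-15). Gbp7 kept a level of 2.43 to 5.45 CPM (median 3.13) in Cast against 13.03 to 45.99 CPM (median 29.8) in B6 (-3.06 ± 0.37, adjusted p = 4.63e-10). Gvin1, a very large member, differed the other way round among strains: B6 was at 20.9 to 89.05 CPM (median 37.8), Cast at 0.405 to 1.62 CPM (median 1.27) (-5.34 ± 0.53, adjusted p = 3.67e-12), and all 6 other strain means were nearer to Cast. These genes lie in clusters of similar copies, so how their reads were divided is uncertain.

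Mx2, an antiviral dynamin-like GTPase, was the response gene called higher. It lay at 3.06 to 7.06 CPM (median 4.79) in B6 and 14.3 to 290.3 CPM (median 39.9) in Cast (3.96 ± 0.39, adjusted p = 1.51e-12), with the highest value in Cast 5. Its fold change was 1.65 in high-Xist and 5.03 in low-Xist libraries (adjusted p of the difference = 3.11e-05). Interferon response genes as a list also depended on class: 22 of 43 (51.2%, beside 6.83% of all genes) differed, all with the more negative value in the high-Xist libraries. There the median was -2.07 with 40 genes lower, against -1.03 with 30 lower in the low-Xist libraries. Without each library in turn 14 to 26 differed, and without Cast 5 and 6 together 13, all in that direction. For Irf7 the fold change was -4.52 in high-Xist and -2.70 in low-Xist libraries (adjusted p of the difference = 0.00977), and for Isg15 -5.26 and -2.41 (adjusted p = 0.00190).

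Most genes of antigen presentation were lower, in both MHC classes. H2-K1, a classical class I heavy chain (chromosome 17, 33996017 to 34000333), lay at 948 to 1216 CPM (median 1027) in B6 and 109 to 188 CPM (median 145) in Cast (-2.82 ± 0.15, adjusted p = 3.58e-23). Of the other strain means of H2-K1, 5 were nearer to Cast and 1 nearer to B6. H2-D1, the second classical chain, was at 423 to 571 CPM (median 461) in B6 and 79.9 to 118 CPM (median 101) in Cast (-2.30 ± 0.14, adjusted p = 1.4e-20). H2-T22, a non-classical chain, was at 71.1 to 90.01 CPM (median 85.9) in B6 and 3.40 to 8.70 CPM (median 6.23) in Cast (-3.83 ± 0.16, adjusted p = 6.21e-28). All were without overlap, but MHC genes differ in sequence between strains more than most and resemble each other, so their counts are uncertain. Of 24 class I genes, 19 were lower and 3 higher, the latter being H2-T10 (1.55 ± 0.19, adjusted p = 1.14e-09) and the chaperones Calr and Pdia3, whose calls both ended when Cast 5 and 6 were left out together (edgeR adjusted p = 0.631 and 0.849). The call of Pdia3 also ended without Cast 5 (0.141) and without Cast 6 (0.107). By Xist class, 8 of the 24 class I genes differed (33.3%, beside 6.83% of all genes), all with the more negative value in the high-Xist libraries. There the median was -2.04 with 21 genes lower, against -0.86 with 15 lower in the low-Xist libraries. Of 11 class II genes, 10 were lower, including H2-Ab1 (-1.93 ± 0.37, adjusted p = 1.2e-05) and the protease Ctss (-1.73 ± 0.28, adjusted p = 4.89e-07), and H2-Ea-ps, a gene of the E chain annotated as a polymorphic pseudogene, was near absent from B6.

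Markers of the cells that carry many of these genes were lower with them. Of 18 Kupffer cell and macrophage markers, 14 were lower and 0 higher, and their summed level was 605 to 1434 CPM in B6 and 412 to 627 CPM in Cast. In bulk tissue, fewer cells of a type and less RNA per cell cannot be told apart. Folr2, a folate receptor of resident macrophages (chromosome 7, 101839990 to 101845331), was at 7.06 to 17.7 CPM (median 12.5) in B6 and 0.0737 to 0.421 CPM (median 0.181) in Cast (-5.81 ± 0.34, adjusted p = 4.21e-21). Adgre1, the F4/80 antigen, was at 17.1 to 53.5 CPM (median 38.4) in B6 and 3.02 to 6.92 CPM (median 5.71) in Cast (-2.76 ± 0.33, adjusted p = 5.42e-10). Both were without overlap, as were Vsig4, a complement receptor (-2.03 ± 0.27, adjusted p = 1.04e-08), and Ptprc, the pan-leukocyte CD45 (-2.14 ± 0.30, adjusted p = 3.52e-08). The 4 not called were Marco, Mpeg1, Cd163 and Mrc1, with log2 fold changes from -0.48 to 0.40, named after their values were seen, and Mpeg1 passed without Cast 1 (adjusted p = 0.0298). Marco was at -2.95 without Cast 5 and 6 (adjusted p = 0.00816), and at -3.27 in high-Xist and 1.67 in low-Xist libraries (adjusted p of the difference = 0.0217). The part of such cells in the lower interferon and class II genes was not tested.

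Lymphocyte markers were low in both strains and lower in Cast. The sum of the list was 21.9 to 46.6 CPM in B6 and 2.40 to 18.1 CPM in Cast, and 19 of 21 tested were called lower, with a median of -2.93. Nkg7, a granule protein of cytotoxic cells, had 0.240 to 0.820 CPM (median 0.479) in B6 and 0 reads in every Cast library. Cd3g, a chain of the T cell receptor complex, was at 0.176 to 1.23 CPM (median 0.575) in B6 and 0 to 0.0964 CPM (median 0.0299) in Cast (-4.13 ± 0.67, adjusted p = 6.88e-07). Lck, a T cell kinase, was lower without overlap (-2.96 ± 0.53, adjusted p = 3.88e-06). With a minimum mean of 1 CPM 1 was called lower, and with only the B6 and Cast libraries in the fit 6 were called lower. The list of lipid-associated macrophages, which gather in fatty liver, had 7 of 12 lower and 0 higher, with Clec7a, a fungal receptor (-3.35 ± 0.34, adjusted p = 2.15e-12), Itgax (-3.40 ± 0.47, adjusted p = 1.49e-08) and Trem2 (-2.65 ± 0.53, adjusted p = 2.97e-05). Of 7 neutrophil markers tested, 1 was lower, or 0 without B6 4, and 0 were higher.

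Many matrix and vessel genes were also lower. Lum, a collagen-binding proteoglycan (chromosome 10, 97565501 to 97572703), was at 5.41 to 8.93 CPM (median 6.13) in B6 and 0.337 to 1.68 CPM (median 1.02) in Cast (-2.86 ± 0.26, adjusted p = 5.32e-14), and Col3a1, a fibrillar collagen, at 43.5 to 101 CPM (median 69.5) in B6 and 1.60 to 24.8 CPM (median 10.7) in Cast (-2.71 ± 0.36, adjusted p = 8.01e-09). Of 22 stellate cell and fibroblast genes, 13 were lower and 1 higher (2 without B6 2, B6 4 or Cast 1), Pdgfra, a growth factor receptor (0.47 ± 0.14, adjusted p = 0.00258). Of 18 sinusoidal endothelial genes, 11 were lower, such as Cdh5, a junction cadherin (-0.98 ± 0.11, adjusted p = 3.27e-11), and 2 were higher, Vwf, von Willebrand factor (0.77 ± 0.10, adjusted p = 6.89e-09), and Lyve1, a hyaluronan receptor (1.41 ± 0.24, adjusted p = 1.91e-06). Of 30 cell cycle genes, 17 were lower, among them Ccnd1, cyclin D1, at 21.1 to 100.3 CPM (median 72.3) in B6 and 1.37 to 8.87 CPM (median 4.79) in Cast (-3.76 ± 0.58, adjusted p = 2.76e-07), and Mki67, a marker of dividing cells (-3.34 ± 0.48, adjusted p = 5.3e-08). E2f7, a repressor of that programme, was higher (3.43 ± 0.42, adjusted p = 9.62e-10). It was 1 of 2 cell cycle genes called higher, and 4 or 5 were called higher without Cast 2, 3, 7 or 8, one at a time.

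The acute phase reaction, in which the liver secretes defence proteins on a signal from interleukin 6, differed widely among the Cast libraries. Saa1, serum amyloid A, lay at 24.4 to 130.2 CPM (median 51.6) in B6. In Cast it was at 3874 CPM in library 6, 1126 in 3, 571 in 5 and 76.8 in 7, and at 2.50, 1.25 and 2.62 CPM in 1, 2 and 8. Thus 3 Cast libraries were above all B6 libraries and 3 below all of them. The called excess (3.94 ± 1.27, adjusted p = 0.00712) ended without Cast 6 (adjusted p = 0.0665). Orm2, an acid glycoprotein, had a fold change of 3.76 ± 1.08 (adjusted p = 0.00255) over all libraries, 1.94 without Cast 6 (adjusted p = 0.0828) and 0.03 without Cast 5 and 6 (adjusted p = 0.981). Of 24 acute phase genes, 10 were called higher and 4 lower over all libraries, 5 higher without Cast 6, and 2 higher and 9 lower without Cast 5 and 6. Stat3, which carries the interleukin 6 signal (0.75 ± 0.17, adjusted p = 1.4e-04), and Il6ra, its receptor (0.95 ± 0.27, adjusted p = 0.00257), were higher, and Saa4, the constitutive form, lower (-1.37 ± 0.36, adjusted p = 0.00101).

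Chaperones of the endoplasmic reticulum were highest in Cast 5 and 6. Hsp90b1 lay at 591 to 896 CPM (median 779.5) in B6. In Cast it was at 3447 CPM in library 5 and 2636 CPM in library 6, and at 802 to 905 CPM in the other 5. Of 29 genes of this stress list 14 were called higher and 1 lower, which became 7 higher without Cast 5, 9 without Cast 6 and 3 without both. Hsp90b1 had a fold change of 0.96 ± 0.22 (adjusted p = 1.77e-04), and of 0.17 without both (adjusted p = 0.347). Trib3, a pseudokinase of the stress response, was higher in all Cast than in all B6 libraries (1.63 ± 0.33, adjusted p = 3.58e-05), and Hspd1, a mitochondrial chaperonin, was too (0.40 ± 0.08, adjusted p = 2.99e-05). Fibrinogen followed Cast 5 and 6: Fgb was at 15514 CPM in Cast 6 and 8934 CPM in Cast 5, and its call (0.93 ± 0.25, adjusted p = 0.00122) ended without both (adjusted p = 0.188). Of 43 complement and coagulation genes 7 were higher (16.3%, under the 28.2% of all genes) and 13 lower (30.2%, near 28.9%), with 7 lower without Cast 5 and 6, 6 lower with only the 2 strains in the fit, and 8 lower without B6 2 or without B6 4. C8b, of the membrane attack complex, was higher (2.60 ± 0.57, adjusted p = 1.27e-04), and C1qa, which macrophages make, was lower (-1.44 ± 0.25, adjusted p = 3.43e-06).

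Detoxifying enzymes included single genes with large differences in both directions. Families of near-identical genes (P450, glutathione transferase, sulfotransferase, carboxylesterase, major urinary protein and Serpina) can share reads, and all values of single members are uncertain for that reason. Of 57 P450 genes 11 were higher (19.3%) and 13 lower (22.8%), both under the 28.2% and 28.9% of all genes, with 18 higher once Xist was a covariate. Cyp3a25 (chromosome 5, 145977194 to 146009618) lay at 273 to 380 CPM (median 292) in B6 and 703 to 3060.3 CPM (median 1965) in Cast (2.59 ± 0.28, adjusted p = 2.15e-11). Cyp2j5, an epoxygenase, lay at 462 to 622 CPM (median 580.2) in B6 and 15.9 to 321 CPM (median 253) in Cast (-1.54 ± 0.27, adjusted p = 2.39e-06). Neither overlapped. Cyp2c70, which makes the muricholic acids of mice, had a fold change of 2.70 in low-Xist and 0.12 in high-Xist libraries (adjusted p of the difference = 5.71e-06).

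Among conjugation enzymes 11 of 52 were higher (21.1%, beside 28.2% of all genes) and 19 lower (36.5%, beside 28.9%), and 7 were higher without the 3 Cast libraries under 1% Rn18s-rs5. Gstt1, a glutathione transferase (chromosome 10, 75783813 to 75798584), was at 188 to 226 CPM (median 199) in B6 and 3.14 to 17.6 CPM (median 5.96) in Cast (-4.58 ± 0.30, adjusted p = 3.5e-19), against 67.1 to 215 CPM in the other strains. Ugt3a2, a glycosyltransferase, was at 254 to 383 CPM (median 326) in B6 and 2.04 to 33.7 CPM (median 24.9) in Cast (-4.03 ± 0.29, adjusted p = 1.45e-17). On the other side, Ugt1a10 was at 0.209 to 0.869 CPM (median 0.697) in B6 and 15.4 to 139.6 CPM (median 37.9) in Cast (6.48 ± 0.52, adjusted p = 9.62e-16). Its exons are shared in part with other genes of the locus. Mgst2, a microsomal transferase, was higher (6.21 ± 0.86, adjusted p = 1.9e-08), with 15.7 to 26.9 CPM in low-Xist Cast against 1.48 to 3.04 CPM in high-Xist Cast.

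Carboxylesterases, which split ester drugs and lipids, differed in both directions. Ces2b was at 0.0819 to 1.44 CPM (median 0.150) in B6 and 6.89 to 185 CPM (median 45.7) in Cast (7.73 ± 1.05, adjusted p = 1.27e-08), and Ces2h at 0.164 to 1.29 CPM (median 0.316) in B6 and 3.20 to 59.9 CPM (median 37.6) in Cast (6.14 ± 0.43, adjusted p = 4.56e-18). In contrast, Ces1e was at 82.7 to 159 CPM (median 123) in B6 and 2.27 to 19.3 CPM (median 15.6) in Cast (-3.25 ± 0.33, adjusted p = 2.45e-12), and Ces1g was lower (-3.73 ± 0.50, adjusted p = 8.75e-09). Of 16 genes 4 were higher and 8 lower, and all 4 named here lie on chromosome 8. The summed level of the family was 4593 to 6034 CPM in B6 and 466 to 4363.5 CPM in Cast.

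Serpina genes, which encode protease inhibitors of plasma, differed in both directions too. Serpina1a, alpha-1-antitrypsin (chromosome 12, 103853589 to 103863562), was at 2376 to 3667 CPM (median 2810) in B6 and 54.8 to 112 CPM (median 92.3) in Cast (-5.02 ± 0.25, adjusted p = 5.23e-24), and Serpina1c at 3166 to 6229 CPM (median 4010.5) in B6 and 247 to 423 CPM (median 264) in Cast (-3.73 ± 0.54, adjusted p = 5.33e-08). Serpina3k was at 1658 to 6995 CPM (median 3744) in B6 and 9635 to 18321 CPM (median 13439.9) in Cast (1.78 ± 0.30, adjusted p = 1.36e-06). The 3 pairs of groups were without overlap. Serpina7, the thyroxine-binding globulin, was lower (-5.12 ± 0.58, adjusted p = 9.82e-11). Of the family 12 of 20 genes were higher and 4 lower.

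Several of the genes with the largest differences had their highest levels in 1 Xist class of 1 strain. Mup20, a pheromone-binding urinary protein known as darcin (chromosome 4, 62050234 to 62054158), was at 2644 to 3924 CPM in the 3 low-Xist B6 libraries, 20.3 to 30.4 CPM in the 4 high-Xist B6 libraries and 0 to 1.87 CPM (median 0.673) in Cast (-11.02 ± 2.14, adjusted p = 1.8e-05). Moxd1, a monooxygenase-like gene, was at 209.8 to 1008 CPM in low-Xist Cast, 0.366 to 1.46 CPM in high-Xist Cast and 0 to 0.421 CPM (median 0.0584) in B6 (11.48 ± 2.08, adjusted p = 5.3e-06). Cyp2b13 was at 213 to 257 CPM in high-Xist B6, 0.0702 to 1.32 CPM in low-Xist B6 and 0 to 0.119 CPM (median 0) in Cast (-12.06 ± 2.28, adjusted p = 1.19e-05). Each thus had 1 of the 4 combinations of strain and class above the rest. In the other class the strains differed too. The log2 fold change was -5.36 for Mup20 (high-Xist, adjusted p = 9.47e-07) and 4.33 for Moxd1 (high-Xist, 0.0177). For Cyp2b13 it was -5.89 (low-Xist, 0.00953). The difference by class passed the test for Mup20 (edgeR adjusted p = 4.46e-05), but not for Cyp2b13 (0.709) or Moxd1 (0.287). Sult3a1, a sulfotransferase known from female liver, was at 11.2 to 51.01 CPM in high-Xist B6 and 0.176 to 1.41 CPM in low-Xist B6, but at 334 to 2081 CPM (median 1327) over all Cast libraries (5.94 ± 2.06, adjusted p = 0.0118). Its fold change was 5.21 in high-Xist and 10.85 in low-Xist libraries (adjusted p of the difference = 0.00180).

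As lists, 1 of 24 genes known to be higher in female liver was called higher in Cast (4.17%) and 7 lower (29.2%). Of 22 known to be higher in male liver, 8 were higher (36.4%) and 2 lower (9.09%). Over all genes 28.2% were higher and 28.9% lower, so over all libraries the share of female-biased genes called lower was near that of all genes. In the high-Xist libraries 7 of these 24 were higher and 12 lower (all genes 21.8% and 23.7%). In the low-Xist libraries 10 were higher and 8 lower (all genes 24.2% and 25.0%). The difference by class passed the test for 25% of the female-biased and 31.8% of the male-biased genes, beside 6.83% of all genes. With Xist as a covariate the first list had 10 higher and 11 lower, and without B6 1 or 3 or Cast 3, 5, 7 or 8, one at a time, it had 2 higher. The second list had 1 lower without B6 6, 7 or 8 or Cast 1, 2, 3, 5 or 6, one at a time, Mup20 being lower in every one of these fits. Among the male-biased genes, Serpina3k and Cyp7b1 were higher in Cast and Mup20 lower, as given above. Of 19 major urinary proteins 7 were higher, as Mup17, at 28.9 to 1335 CPM (median 175) in B6 and 645 to 27660.2 CPM (median 5825) in Cast (4.91 ± 1.23, adjusted p = 6.07e-04), and 2 lower, Mup20 and Mup10 (-3.65 ± 1.02, adjusted p = 0.00201).

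Cytosolic ribosomal proteins were higher in Cast in 61 of 78 genes (78.2%, beside 28.2% of all genes) and lower in 7, with a small median of 0.35. In the low-Xist libraries 63 were higher and 5 lower (all genes 24.2% higher and 25.0% lower). In the high-Xist libraries 25 were higher and 9 lower (all genes 21.8% higher and 23.7% lower). The difference by class passed the test for 4 of the 78, and with the replicate block 24 were called higher. Some of the 78 genes differed by far more, and for 6 of the 7 genes that differed more than 4-fold a row named as a copy differed the other way. The other was Rpl5, at 10.3 and 43.2 CPM, whose copy was at 2.25 and 2.79 CPM. Rpl9 was at 5.17 CPM in B6 and 161 CPM in Cast, a 31.1-fold excess. Rpl9-ps6, a copy on chromosome 19 annotated as protein coding, was at 112 to 136 CPM (median 122) in B6 and 0 to 0.879 CPM (median 0.0643) in Cast (-8.60 ± 0.33, adjusted p = 2.93e-29). The gene and its named copies together were at 128 ± 8.35 CPM (SD, n = 7) in B6 and 161 ± 35.9 CPM (SD, n = 7) in Cast, 1.25-fold. Rpl19 alone was 18.3-fold higher and 1.19-fold higher with its copies, and Rpl17 42.1-fold and 1.20-fold. Rps13 went the opposite way, from 67.2 to 13.3 CPM alone while its copies went from 0.492 to 72.2 CPM.

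Of 29 ribosomal protein genes with a row named as a copy, 7 differed more than 4-fold alone and 0 when summed with the copies, where these 7 had sums 1.19 to 3.65 times as high in Cast. These sums were added after the data were seen. How reads that match a gene and its copy were divided is not given in the sources used here, and its part in these values was not tested. Processed pseudogenes as a class had 16 of 232 genes called 16-fold or more higher and 24 lower, 17.2% of them, beside 2.16% of 13912 protein-coding genes.

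**Figure D5:**
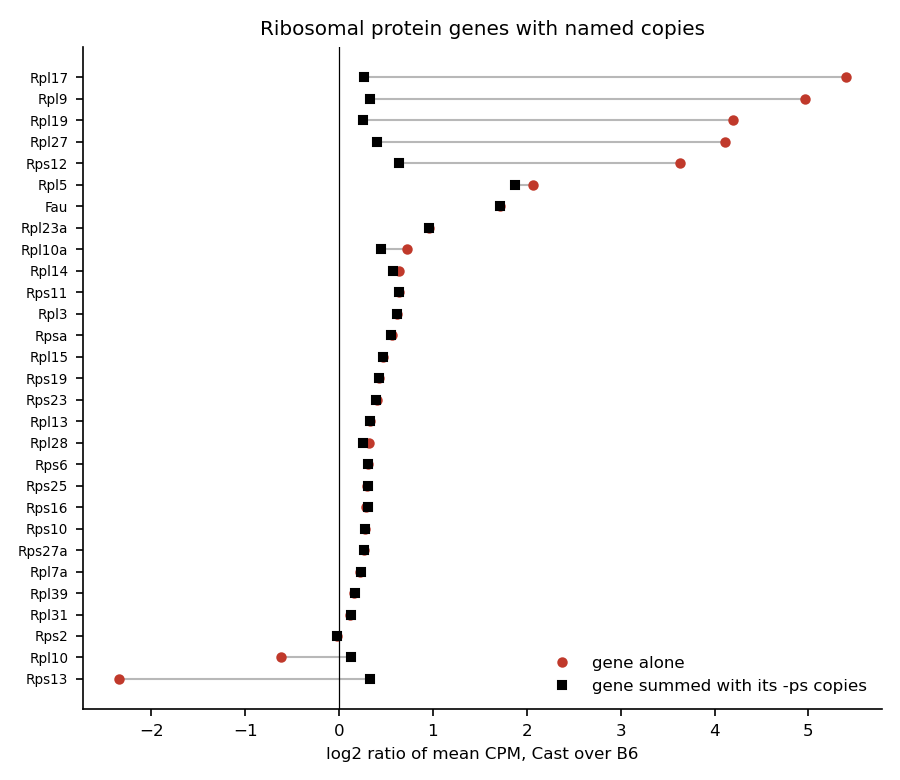
Log2 ratio of mean CPM, Cast over B6 (horizontal axis), of 29 ribosomal protein genes that have at least 1 row named as a copy (-ps). Red circles are the gene alone and black squares the gene summed with its copies. The 7 genes over 4-fold alone move to 1.19 to 3.65-fold once summed.

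Of 75 nuclear genes of the respiratory chain 31 were higher (41.3%, beside 28.2% of all genes), 8 lower and 36 not called (median 0.15), and the 8 became 4 or 5 without B6 2, 6, 7 or 8 or Cast 1, 5 or 6, one at a time. By Xist class, 36 were higher and 1 lower in the high-Xist libraries and 15 higher and 9 lower in the low-Xist libraries, and for 1 of the 75 the difference by class passed the test. Cycs, cytochrome c (chromosome 6, 50562563 to 50566538), lay at 28.4 to 47.7 CPM (median 35.1) in B6 and 126 to 203 CPM (median 169.5) in Cast with no overlap (2.14 ± 0.11, adjusted p = 2.39e-23). Of 15 mitochondria-encoded genes 6 were higher, such as mt-Nd1, of complex I (0.45 ± 0.10, adjusted p = 1.91e-04), and 2 lower, with 2 higher without the 3 Cast libraries under 1% Rn18s-rs5. One of the lower ones was mt-Co2, a subunit of cytochrome oxidase, at 1654 to 2561 CPM (median 2260.3) in B6 and 5.72 to 24.3 CPM (median 11.6) in Cast (-7.39 ± 0.34, adjusted p = 5.83e-26). Gm13341, an unprocessed pseudogene, was at 0.120 to 0.569 CPM (median 0.146) in B6 and 815 to 2428 CPM (median 1602) in Cast. Its parent gene is not given in the tables used here, and it was named after its values were seen. How reads that match more than 1 gene were divided is not given in the sources used here. Its part in the values of mt-Co2 and Gm13341 was not tested, so both counts are uncertain.

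Of 28 iron and haem genes 14 were lower and 4 higher. Uros, an enzyme of haem synthesis (chromosome 7, 133686243 to 133710072), was at 13.03 to 17.4 CPM (median 15.8) in B6 and 5.51 to 7.26 CPM (median 6.46) in Cast (-1.30 ± 0.08, adjusted p = 2.06e-20), and Tfrc, the transferrin receptor, was higher (1.21 ± 0.25, adjusted p = 6.45e-05). Of 26 NRF2 and glutathione genes 4 were higher (15.4%) and 5 lower (19.2%), both under the 28.2% and 28.9% of all genes. The 4 became 2 without Cast 5 and 6, and 1 with only the B6 and Cast libraries in the fit. Lower were Gclm, a subunit of the enzyme that limits glutathione synthesis (-0.81 ± 0.09, adjusted p = 2.69e-11), and Akr7a5, an aldehyde reductase (-1.25 ± 0.15, adjusted p = 4.5e-10), among others, both without overlap. Of 22 clock genes 1 was higher, Rora, a nuclear receptor (0.41 ± 0.11, adjusted p = 0.00169), and 2 were lower. Leaving out each library in turn gave 1 to 5 higher (5 without B6 7) and 0 to 4 lower (4 without Cast 7). Collection times are not given in the labels.

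Genes with known differences between mouse strains gave 7 higher (28%) and 6 lower (24%) of 25, about the 28.2% and 28.9% of all genes. Abcb1b, a drug efflux pump, was at 0.526 to 1.51 CPM (median 0.987) in B6 and 5.43 to 72.1 CPM (median 38.6) in Cast (5.06 ± 0.48, adjusted p = 4.36e-13), with a larger difference in low-Xist than in high-Xist libraries (5.48 against 3.33, adjusted p of the difference = 0.0150). Gstm3, a glutathione transferase, was at 14.2 to 43.96 CPM (median 20.97) in B6 and 0.0999 to 1.22 CPM (median 0.388) in Cast (-5.32 ± 0.75, adjusted p = 2.99e-08). Nnmt, which methylates nicotinamide, was higher (2.35 ± 0.58, adjusted p = 5.37e-04), and Alad, an early enzyme of haem synthesis, lower (-0.68 ± 0.16, adjusted p = 3.71e-04). Nnt, the transhydrogenase that carries a deletion in C57BL/6J, was at 52.8 to 65.2 CPM (median 59.5) in B6 and 18.6 to 116 CPM (median 71.01) in Cast (0.19 ± 0.19, adjusted p = 0.391). This count does not tell which exons were covered, and the call of Nnt passed without Cast 5 (adjusted p = 0.0489) and without Cast 5 and 6 (0.00277). The other 6 strains averaged 119.5 to 164.3 CPM of Nnt, above the means of both B6 (59.7 CPM) and Cast (68.3 CPM).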

How the data were processed

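Liver poly-A RNA-seq was deposited for 61 samples of 8 strains, and 60 had a column in the table of counts used here. The values are estimated counts per gene as deposited by the authors, of which 20.1% are not whole, with 18754 genes, each above 0 in at least 29 libraries. Per the submitters' processing notes the build was GRCm38 and DESeq2 was used, while the aligner, the genome used for each strain and the strandedness of counting were not stated in those notes (not given in the sources used here). A table of variance-stabilised log2 values, also deposited by the authors, served as an alternative. One of the columns of counts (1 in all) matched no sample and was not used.

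Counts were rounded to whole numbers, filtered by strain (16165 genes tested) and fitted in 1 model over all 60 libraries with edgeR 4.0.16 (TMM scaling, quasi-likelihood test, Benjamini-Hochberg adjustment) in R 4.3.3, which supplies every adjusted p of a fold change. The design had assumed whole counts. Differences by Xist class came from an interaction in the same kind of fit, with a class boundary of 100 CPM. Libraries of 1 strain differed far beyond sampling noise. Known changes were tested on simulated data. Same-numbered B6 and Cast libraries had correlations of their deviations of 0.0619 to 0.266 in 6 pairs, 5 over 0.1, so the numbers were not used as pairs. Promoters were searched in RefSeq windows.

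The members and gene lists were chosen with earlier results of these data known. Named genes were the 12 largest non-overlapping calls per direction, taken from genes annotated as protein coding that averaged 5 CPM or more over the 14 libraries (predicted genes, olfactory and vomeronasal receptors, Xist and Y-linked genes left out), up to 5 called members per list and direction, near-absent genes and the known strain-different genes, and those outside this rule are said to be so. Alternatives covered scaling (RLE), DESeq2 1.42.0, limma 3.58.1 on the log2 values, the filter, the libraries fitted, a replicate block, Xist as a covariate and each library left out in turn. The single-class fits and those without Cast 5 and 6 or without the Cast libraries under 2% Rn18s-rs5 were added after the data were seen. Some members of the lists are counted but not reported here by name.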

Additional observations from a re-analysis of the deposited data

Results flagged for a closer look

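In 47 of 374 groups of 7 libraries (12.6%), the highest or lowest library stood apart from the other 6 by Dixon's criterion, which flags about 1 in 20 groups of normally distributed values. Over all 16165 genes, on log2 CPM and not the CPM of these flags, Cast 1 (2.75%), B6 7 (2.21%) and B6 2 (2.06%) stood apart most often. The share was 1.31% for Cast 5 and 0.718% for Cast 6. Cast 5 was highest of its strain for Ifi44 (0.748 CPM), Ifit3 (5.24 CPM), Igtp (22.3 CPM), Irf7 (9.49 CPM), Isg15 (1.83 CPM), Mx1 (4.76 CPM), Mx2 (290.3 CPM), Oas1b (2.01 CPM), Pgam1 (258 CPM) and Rpl5 (54.7 CPM) and lowest for Bckdhb (94.2 CPM). B6 7 was highest of its strain for Ces2b (1.44 CPM), Egfr (560.5 CPM), Mup17 (1335 CPM), Pnpla2 (80.6 CPM), Serpina1c (6229 CPM) and Slc37a4 (166 CPM) and lowest for H2-T10 (1.69 CPM) and Uros (13.03 CPM). Cast 1 was highest of its strain for Aass (2809 CPM), Plin2 (563 CPM), Pnpla2 (493 CPM), Vnn1 (13.8 CPM) and Wfdc17 (0.0333 CPM) and lowest for Bst2 (18.7 CPM). Cast 6 was highest of its strain for Gbp10 (0.181 CPM), Marco (60.6 CPM), Orm2 (899 CPM), Saa1 (3874 CPM) and Saa4 (164 CPM). B6 6 was highest of its strain for Gstm3 (43.96 CPM), H2-D1 (571 CPM), H2-Ea-ps (0.0751 CPM), Orm2 (29.8 CPM), Saa1 (130.2 CPM) and Unc5c (0.0250 CPM). B6 8 was highest of its strain for Eno1b (0.809 CPM) and Gm13341 (0.569 CPM) and lowest for H2-T22 (71.1 CPM). B6 2 was highest of its strain for Akr1c18 (1.32 CPM) and Ces2h (1.29 CPM). Cast 3 was highest of its strain for Cyp2b13 (0.119 CPM). B6 4 was highest of its strain for Marco (66.01 CPM), Rpl5 (13.3 CPM) and Rpl9 (7.83 CPM). Cast 2 was highest of its strain for Cd3g (0.0964 CPM). The share of mitochondrial reads was lowest in B6 2, at 5.40%.

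The strain difference depended on Xist class in 33 of 183 named genes, by the edgeR interaction with an adjusted p under 0.05. The values are the log2 fold change in low-Xist minus that in high-Xist libraries. It was negative for Abcc3 (-1.82), Acadm (-1.39), Angptl4 (-1.16), Decr1 (-1.09), Eci1 (-1.39), Fads2 (-1.66), G0s2 (-3.31), Gstt1 (-1.67), Insig2 (-1.54), Me1 (-2.62), Mup20 (-6.81), Plin2 (-2.03), Pltp (-1.89), Pnpla2 (-1.61) and Vnn1 (-2.65). It was positive for Abcb1b (2.15), Bst2 (0.91), Calr (1.16), Cyp2c70 (2.59), E2f7 (3.25), Gbp7 (1.52), Hsp90b1 (1.16), Ifi27 (1.47), Irf7 (1.82), Isg15 (2.85), Marco (4.94), Mgst2 (5.63), Mx1 (2.33), Mx2 (3.38), Pdia3 (1.06), Rps13 (0.93), Saa4 (1.64) and Sult3a1 (5.64). Genes of fat metabolism were mostly among the former and interferon genes, Mx2 included, among the latter.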

How the results depend on the processing

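The number of called genes stayed within 1.5 times the 4557 higher and 4667 lower in every alternative except the replicate block, which was fitted over the 2 strains only and gave 2464 higher and 2947 lower. With the block 37.9% of the genes tested were called, and 46.2% in the fit of the 2 strains without it. Without each library in turn the calls numbered 4286 to 4824 higher and 4271 to 4628 lower, and those of at least 2-fold 1175 to 1321 higher and 2317 to 2501 lower. Calls of at least 2-fold moved further: limma on the variance-stabilised values gave 565 higher and 1064 lower, a mean of at least 1 CPM left 824 higher and 1412 lower, and the replicate block left 830 higher. Between 62.4% and 68.0% of such calls were lower in Cast in all settings.

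Among the named genes with a call, 4 changed sign in an alternative. Calr was at -0.12 with only the high-Xist libraries. Pdia3 was at -0.18 there and at -0.044 without Cast 5 and 6. With the replicate block, Orm2 was at -0.26 and Saa1 at -0.58, and 19 other named genes lost their call, with adjusted p from 0.0526 to 0.628: Acadm, Calr, Ceacam1, Cyp2c70, Elovl5, Fads2, Fgb, Hsp90b1, Igfbp1, Insig2, Me1, Pdgfra, Pdia3, Plin2, Pnpla2, Ppargc1a, Rora, Tat and mt-Nd1. That fit has fewer libraries and fewer residual degrees of freedom, and 1 of the B6 libraries correlated best with the Cast library of its own number. Depth limits the lymphocyte markers, most of which had under 1 CPM.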
